A study of Spodoptera frugiperda with 3 samples.

Results

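Protease inhibitor genes of Verson's glands, the paired dermal glands of moth larvae, are described here in the fall armyworm Spodoptera frugiperda (FAW). They are 4 genes named inducible metalloproteinase inhibitor protein-like (IMPI-like) and 1 gene named chymotrypsin inhibitor Ani s 6-like, out of 20644 genes listed in the files. These 5 were chosen by name and on their measured gland levels in earlier work with these data, so their stage patterns are a description and not a test. Of the 5, 4 were abundant in prepupal glands. In larval glands 3 of these, all IMPI-like, had 3 reads or fewer, and the Ani s 6-like gene had a low level. The fifth, LOC118282205, had its lowest level in the prepupa, so the data go against calling it an inhibitor of the prepupal gland. The study grouped the 3 stages and listed this gene as lower in glands than in midgut, epidermis and fat body. It listed the other 4 as higher in glands.

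Glands were dissected from FAW-SID1, a transgenic strain that carries green fluorescence protein under the hr5-IE1 promoter and the RNA transport protein SID1 of Caenorhabditis elegans under the IE1 promoter. All 3 groups carry both transgenes, and they differ in stage: last instar larva (L6), prepupa and pupa. Each stage is 1 library of total RNA, with no replicate, so no test between stages was possible and no p-value is given. The sources used here do not give the number of animals per library or the hour after pupation, and the glands of this strain degenerate after pupation, which limits the pupal library as a model of intact tissue.

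Protease inhibitors block the active site of a protein-cutting enzyme and so limit where and when it works. IMPI was described in the greater wax moth Galleria mellonella, where it inhibits thermolysin-like metalloproteinases of microbes and is induced on infection. Ani s 6 is an allergen of the fish nematode Anisakis simplex and inhibits serine proteases. Both belong to the trypsin inhibitor-like cysteine-rich (TIL) proteins, small secreted proteins held together by disulfide bridges. At a molt, glands and epidermis release a fluid between old and new cuticle whose enzymes digest the old cuticle.

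Levels are given in TPM, which divides reads by exon length and scales each library to the same sum. In L6, 87.8% of 21366500 exon reads fell on ribosomal RNA (rRNA) genes, against 0.307% of 15208331 in the prepupa and 37.1% of 18620715 in the pupa. Outside rRNA genes this left 2610753, 15161624 and 11716156 reads, so that low genes are least precise in L6. TPM rescaled without rRNA genes is therefore given beside the deposited TPM. Rescaling multiplied L6 values of other genes by 3.64, prepupal values by 1.003 and pupal values by 1.22. It moved the median log2 difference between prepupa and L6 over all 20541 genes outside rRNA from 0.47 to 0. That set includes genes with no read in either library, whose difference is 0. Over genes with a protein name the median fell from 2.15 to 0.63, so it was not centred. All intervals are 95% intervals and cover counting error only, not the spread between animals. In glands read in bulk, fewer cells of a type and less RNA per cell cannot be told apart.

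LOC118275519, named chymotrypsin inhibitor Ani s 6-like, was the third most abundant of all listed genes in the prepupa. Its TPM was 12.5 in L6 (9.25 to 16.4, from 50 exon reads), 28761 in the prepupa (28606 to 28916, from 133035 reads) and 46.7 in the pupa (41.7 to 52.1, from 318 reads). Only the prepupal library was high, and this 1 gene held 2.88% of its TPM. The prepupal level was 2308 times that of L6 (1751 to 3110) and 616 times that of the pupa (552 to 690). With rescaled TPM these ratios were 637 (483 to 858) and 505 (452 to 565). The pupal level was 3.75 times that of L6 as deposited (2.78 to 5.16) but 1.26 times when rescaled (0.934 to 1.74), so these low stages did not differ beyond counting error once rRNA was left out. In rank among the 20644 genes its places in L6, prepupa and pupa were 1557, 3 and 1353.

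LOC118282207 was the most abundant IMPI-like gene. Its TPM was 0 in L6 (upper limit 0.610), 3436 in the prepupa (3393 to 3480, from 23952 reads) and 46.2 in the pupa (42.1 to 50.6, from 474 reads). No read was found in L6, while the pupal glands kept a low but well counted level. Against a floor of 3 reads in L6, the prepupal level was 6926-fold higher as deposited and 1910.2-fold higher when rescaled. The floor, at 0.496 TPM, lies below the upper limit of 0.610, so folds against it are not lower bounds. It was 74.4 times the pupal level (67.9 to 81.6), and 60.9 times when rescaled (55.6 to 66.9). The pupal level was itself 93.1-fold above the L6 floor, or 31.3-fold when rescaled.

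LOC118261953 followed the same course. Its TPM was 0.517 in L6 (0.107 to 1.51, from 3 reads), 2743 in the prepupa (2703 to 2783, from 18365 reads) and 40.2 in the pupa (36.3 to 44.3, from 396 reads). With 3 reads behind the L6 value, the prepupa to L6 ratio of 5310 has a wide interval, from 1817 to 25753, and was 1465 when rescaled (501 to 7103). The prepupa to pupa ratio was 68.3 (61.8 to 75.6), and 55.9 when rescaled (50.6 to 61.9).

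LOC118282478 was lower in the prepupa and fell further by the pupa. Its TPM was 0 in L6 (upper limit 0.447), 986 in the prepupa (966 to 1007, from 9375 reads) and 1.57 in the pupa (0.986 to 2.38, from 22 reads). Only the prepupal library was high, whereas LOC118282207 and LOC118261953 kept pupal levels above 40. The prepupal level was at least 2711-fold above L6, or at least 748-fold when rescaled. Its prepupa to pupa ratio of 627 (414 to 1001), 514 when rescaled (339 to 820), lay beside the 616 of the Ani s 6-like gene and above those of the other IMPI-like genes, with intervals that do not overlap theirs.

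LOC118282205 went the other way. Its TPM was 1.32 in L6 (0.658 to 2.36, from 11 reads), 0.624 in the prepupa (0.229 to 1.36, from 6 reads) and 3.32 in the pupa (2.44 to 4.41, from 47 reads). All 3 values are low, and the prepupal one is the lowest. The prepupal level was 0.188 times the pupal level (0.0656 to 0.440), and 0.154 times when rescaled. Against L6 it was 0.473 times as deposited, with an interval that spans 1 (0.144 to 1.40), and 0.131 times when rescaled (0.0396 to 0.385). The highest stage was the pupa as deposited and L6 when rescaled (4.79 in L6 against 4.06 in the pupa), and the rescaled pair differed by less than counting error, at a pupa to L6 ratio of 0.848 (0.433 to 1.81).

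**Figure D1:**
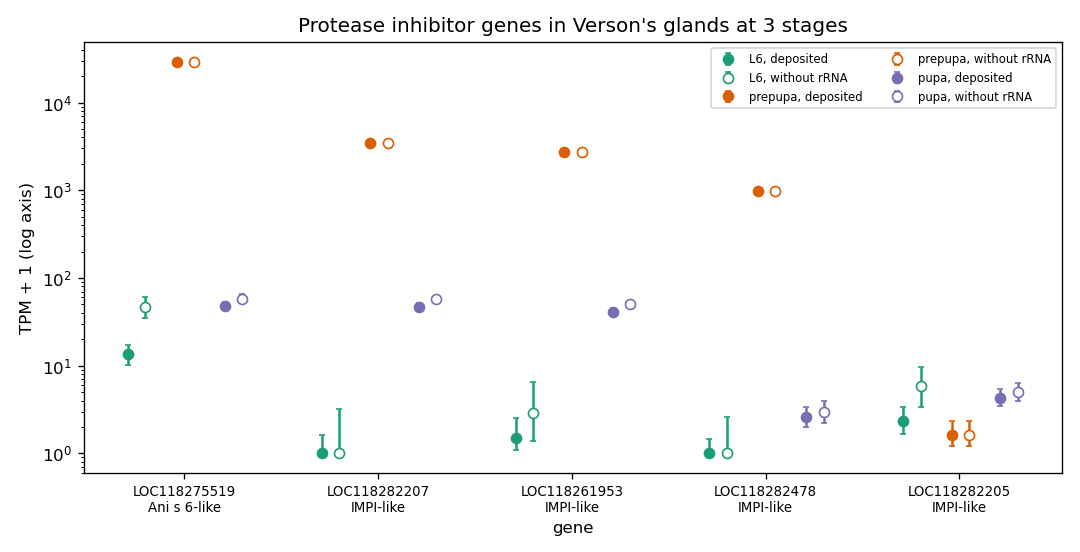
Level of the 5 inhibitor genes in each library, as TPM + 1 on a log axis, with filled points for deposited TPM, open points for TPM rescaled without rRNA genes and bars for 95% Poisson intervals of the reads. Prepupal points of 4 genes lie between 986 and 28761 TPM, far above both other stages, while LOC118282205 is lowest in the prepupa.

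Together the 5 genes took 3.59% of the prepupal TPM, and their summed levels in L6, prepupa and pupa were 14.3, 35927 and 138.0. The 4 IMPI-like genes alone summed to 1.83, 7166 and 91.3. The summed level rested on 64 exon reads in L6 and 184733 in the prepupa. Most of the prepupal sum was the Ani s 6-like gene, whose TPM was 8.37 times that of LOC118282207 (8.25 to 8.49). Next came LOC118261953, 1.25 times below LOC118282207 (1.23 to 1.28), then LOC118282478, a further 2.78 times below, and last LOC118282205.

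The order was not the same in the pupa. There the Ani s 6-like gene and LOC118282207 did not differ beyond counting error, at a ratio of 1.01 (0.874 to 1.17), and LOC118261953 lay 1.15 times below (1.004 to 1.32). On unique reads alone the Ani s 6-like gene was 1.66 times LOC118282207 in the pupa (1.40 to 1.96), so that their likeness there rests on reads not counted as unique. LOC118282205, last in the prepupa, stood above LOC118282478 by 2.11 times in the pupa (1.25 to 3.68). In L6 the Ani s 6-like gene was 9.45 times LOC118282205 (4.86 to 20.1), and LOC118282205 and LOC118261953 did not differ beyond counting error, at 2.55 (0.674 to 14.2), though on unique reads, of which LOC118261953 had 1, the ratio was 7.66 (1.11 to 330).

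A gene was counted as called where its prepupal TPM + 1 was at least 10 times that of the stage it was set against. Against L6, 4 of the 5 genes were called, beside 12.7% of the 12112 genes that reached a TPM of 1 in any library. Against the pupa, 4 of 5 were called, beside 9.87% of those genes. Over both stages together 4 of 5 were called, beside 7.83% as deposited and 4.04% of the 12971 genes tested on rescaled TPM. Since the genes were chosen on these values, nothing is read from these counts beyond the description. LOC118282205 is the 1 gene not called in any of them.

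The genes lie on 2 sequences of the genome used by the authors, a build the sources used here do not name. LOC118275519 is at NC_049730.1:5252400-5253685 on the plus strand, with 3 exons and 438 exonic bases. The 4 IMPI-like genes are all on the plus strand of NC_049712.1, which lists 842 genes. LOC118261953 is at 5251378 to 5253330 with 3 exons and 634 exonic bases, and LOC118282205 at 7135998 to 7139728 with 4 exons, 911 exonic bases and 2 transcripts. LOC118282207 follows at 7140164 to 7142141 with 3 exons and 660 exonic bases, and LOC118282478 at 8281795 to 8285054 with 5 exons and 900 exonic bases. All 5 are listed as protein coding.

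LOC118282205 and LOC118282207 are direct neighbours, 435 bases apart with no listed gene between them. One of this tandem pair was at 3436 TPM in the prepupa while the other was at 0.624. The other IMPI-like genes are further away, with 27 genes between LOC118282207 and LOC118282478 and 103 between LOC118282207 and LOC118261953. The next gene after LOC118282207, LOC118282464, had a TPM of 0, 2.21 and 0.485 in L6, prepupa and pupa, and the gene before LOC118282205, LOC118261872, had 0.0842, 0 and 0.397. High prepupal expression was thus not shared by the genes directly around the pair.

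LOC118261953 lies within the span of another gene on the same strand, LOC118261950, which runs from 5247609 to 5263221 with 9 exons. At the successive stages the enclosing gene was at a TPM of 1.36, 0.415 and 3.43, a pattern close to that of LOC118282205. Its introns held 3, 3919 and 30 reads, high in the prepupa where LOC118261953 was high. On either side, LOC118261952 had no read in any library and LOC118261951 had a TPM of 0.233, 0.708 and 1.31. Of the 10 genes nearest to LOC118261953, 9 were under a TPM of 1 in the prepupa and 5 had no read there. The tenth, LOC118282450, named here after its values were seen, was also highest in the prepupa, at 2.56, 160.0 and 2.30.

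LOC118282478 stands beside another abundant gene that is counted here as TIL type. It overlaps by 3 bases the end of LOC118282477, a zonadhesin-like gene of 48 exons on the same strand. Zonadhesin, a sperm protein of mammals, holds TIL domains. It was at a TPM of 0 in the larva, 416 in the prepupa (37959 reads) and 0.0149 in the pupa (2 reads), so both adjoining genes were high in the prepupa alone. How reads across the 3 shared bases were assigned is not stated. On the far side LOC118282401 had 5.75, 42.5 and 4.11. Of the 10 nearest genes, 2 were over a TPM of 100 in the prepupa, the second being the zonadhesin-like LOC118261970 at 0.0137, 540 and 0.153.

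LOC118275519 lies inside LOC118275515, a gene of 28 exons on the opposite strand that runs from 5210315 to 5441155. The exons of this host had a TPM of 0.0214, 0.762 and 0.0379, while its introns held 44, 12527 and 72 reads in L6, prepupa and pupa. Whether the counting used strand is not stated, and without strand, reads of a gene and of its antisense partner cannot be told apart. Of the 10 nearest genes, 7 were under a TPM of 1 in the prepupa and none was over 40.1. The next genes on either side, both also within the span of the host, were LOC118275516, at 0.235, 2.04 and 4.15, and LOC118275518, at 0.142, 0.247 and 0.252.

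One further neighbour, chosen after its values were seen, has an inhibitor-type name. LOC118282209, venom peptide CtAPI-like, is the fourth gene after LOC118282207 and is named after a scorpion venom peptide of the Ascaris-type protease inhibitors. Its larval, prepupal and pupal TPM was 4.10, 225.6 and 34.5. The inhibitor lists given below do not hold this gene, so their counts leave it out. It was the highest of the 10 genes around LOC118282207 in the prepupa, of which 5 were under a TPM of 1. On either side of it LOC118282208, at 4.23, 89.0 and 5.60, and LOC118282465, at 1.56, 86.2 and 0.527, also peaked in the prepupa and are likewise named after their values were seen.

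**Figure D2:**
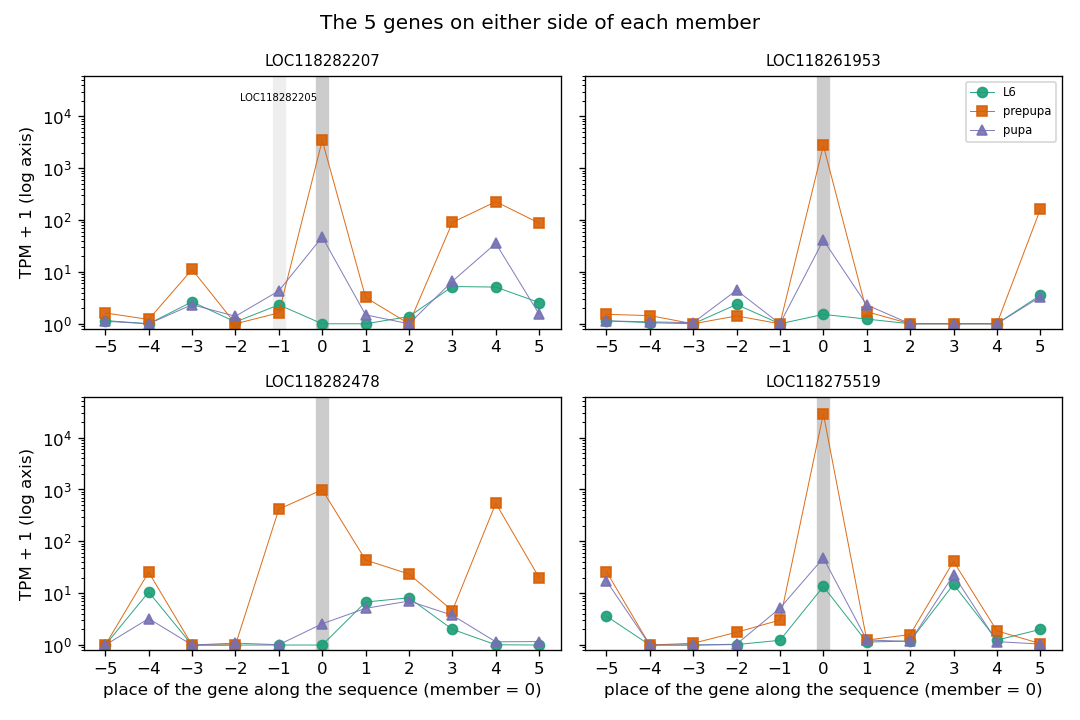
TPM + 1 (log axis) of the 5 genes on either side of 4 of the inhibitor genes, by place along the sequence, with the described gene at 0 in dark grey and LOC118282205 in light grey. The direct neighbours of LOC118282207, LOC118261953 and LOC118275519 are all under 3 TPM in the prepupa, with lower prepupal peaks further along around the first pair, and around LOC118282478 the zonadhesin-like neighbour at place -1 is high as well.

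Similar genes can share reads, so uniquely mapped reads were set beside all exon reads. For the Ani s 6-like gene 49 of 50 exon reads were unique in L6, and the prepupal and pupal shares were 97.0% and 94.3%. For LOC118282478 the shares were 96.3% and 90.9%. LOC118282207 had 75.1% unique reads in the prepupa (74.5 to 75.6) and 57.6% in the pupa (53.1 to 62.0). LOC118261953 had 63.8% (63.1 to 64.5) and 43.7% (38.9 to 48.6), and 1 unique read of 3 in L6. The levels of LOC118282207 and LOC118261953 are therefore uncertain beyond their counting intervals, while those of the Ani s 6-like gene and LOC118282478 rest almost wholly on reads of their own.

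In the prepupa the exon reads not counted as unique numbered 5965 on LOC118282207 and 6654 on LOC118261953, a ratio of 0.896 (0.866 to 0.928). Of prepupal intron reads, 0 of 222 on LOC118261953 and 0 of 705 on the Ani s 6-like gene were unique, both genes within another gene. On LOC118282207 it was 171 of 329 and on LOC118282478 411 of 413. Whether overlap with the enclosing gene also took exon reads out of the unique count was not tested. The unique exon reads of LOC118282207 and LOC118261953 numbered 17987 and 11711, a ratio of 1.54 (1.5005 to 1.57). In the pupa the unique ratio was 1.58 (1.30 to 1.92) and the ratio of reads not unique 0.901 (0.741 to 1.10), so both ratios recurred in a second library. With unique reads only, the prepupal TPM was 2886 for LOC118282207, 1956 for LOC118261953, 1062 for LOC118282478, 31191 for the Ani s 6-like gene and 0.581 for LOC118282205. The order of the 5 genes in the prepupa is the same on either scale. How the authors shared out reads with several places is not stated.

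**Figure D3:**
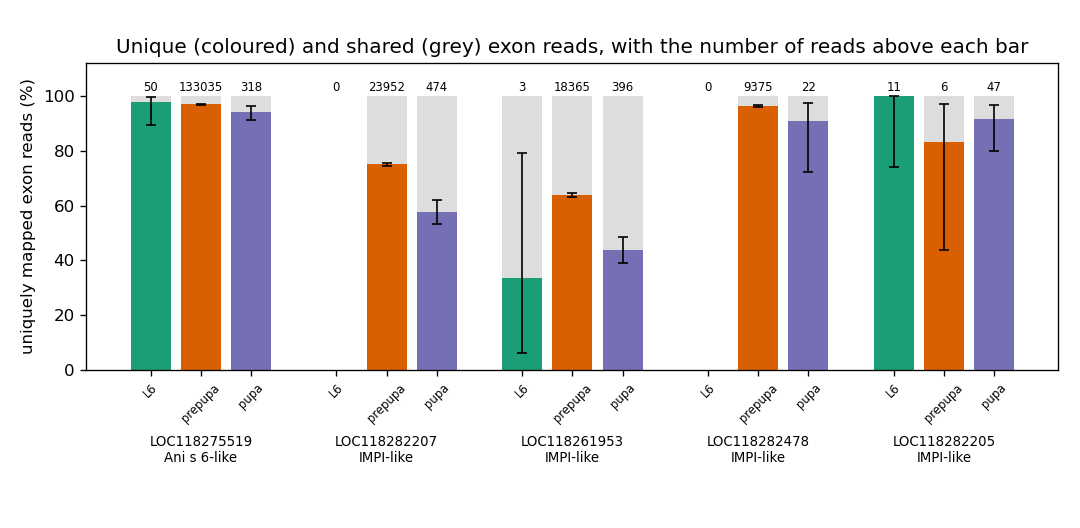
Share of exon reads counted as unique (colour) and not unique (grey) for each of the 5 genes and stages, in percent, with 95% Wilson intervals and the number of exon reads above each bar. LOC118282207 and LOC118261953 hold large grey parts in the prepupa and pupa, and LOC118275519 and LOC118282478 hold under 10% in every library with reads.

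Reads over exon junctions come from spliced RNA. In the prepupa 88.1% of exon reads of the Ani s 6-like gene counted as junction reads, 77.4% of LOC118282207, 70.8% of LOC118261953 and 74.8% of LOC118282478 (73.9 to 75.7). The share depends on exon number and length, so it is compared within a gene only. In the pupa 3 genes had lower shares, with intervals that do not overlap the prepupal ones: LOC118282207 had 65.0% (60.6 to 69.1), LOC118261953 54.5% (49.6 to 59.4) and LOC118282478 36.4% (19.7 to 57.0, 8 of 22 reads). The intron reads of LOC118282478 were 413 of 9788 gene reads in the prepupa, or 4.22%, and 3 of 25 in the pupa, or 12.0% (4.17 to 30.0). The Ani s 6-like gene had 90.3% junction reads in the pupa (86.5 to 93.0), close to its prepupal share.

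A later RefSeq gene table, made for assembly AGI-APGP_CSIRO_Sfru_2.0, was used for annotation only. It lists LOC118282207 and LOC118282205 as protein coding. It lists LOC118275519 as a long noncoding RNA gene, against protein coding in the files, so its status as a translated inhibitor rests on the annotation chosen. LOC118261953 and LOC118282478 were not matched in it. In its order of genes, LOC118261951, LOC118282207, LOC118261952 and LOC118282205 follow each other, although the files place LOC118261951 and LOC118261952 next to LOC118261953, which lies 1886833 bases from LOC118282207. Whether both stretches of the files hold the same locus was not tested, so the levels of LOC118282207 and LOC118261953 may not be separate measurements.

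The genes most similar in level and stage pattern were found by distance of log2(TPM + 1) over the 3 libraries, among 12111 other genes. Values were not centred per gene, so the distance depends on level as well as on pattern. For LOC118282207 the nearest was LOC118261953, at a distance of 0.71, then the uncharacterized LOC118274230 at 0.75 with a TPM of 0, 2071 and 52.5. The third was LOC118262197, U-scoloptoxin(19)-Sm1a-like and so named after a centipede venom protein, at 1.24 with 0.853, 1998 and 35.9. For LOC118261953 the nearest was LOC118262197 at 0.56, then LOC118282207 and LOC118274230. Rescaling put LOC118274230 before LOC118261953 for LOC118282207.

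For LOC118282478 the nearest was again a gene counted as TIL type, the zonadhesin-like LOC118271594, at a distance of 0.42 with TPM values of 0, 1158 and 1.02. A peroxidase-like gene, LOC118269917, followed at 0.80 with 0, 910 and 0.486, then a glucose dehydrogenase gene, LOC118264453, at 0.84 with 0, 1670 and 0.989. No gene came as close to the Ani s 6-like gene, which was at rank 3 in the prepupa, so few genes could match its level. Its nearest were the glucose dehydrogenase gene LOC118265752 at 3.15 (3.99, 10419 and 8.11), the acyl-CoA desaturase-like LOC118264952 at 3.56 (28.3, 4050 and 12.2) and LOC118262758, U-scoloptoxin(19)-Sm1a-like, at 3.86 (43.5, 13498 and 460). For LOC118282205 the nearest were LOC118282280 at 0.12, LOC118261950 at 0.20 and LOC118278081 at 0.21, all near 1 in L6, under 1 in the prepupa and near 3 in the pupa. LOC118261950 is the gene that encloses LOC118261953.

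Protein names were at hand for 2326 of the 20644 genes, from the study's own tables. These were selected in part on gland levels, so the lists that follow are not complete and not independent evidence of direction. They hold 24 genes counted as protease inhibitors by name, the 5 and 19 others. Among the 19 are zonadhesin-like genes, counted as TIL type although their name is not that of an inhibitor. Of the 24, 11 were called over both stages, beside 348 (15.4%) of the 2266 named genes tested. On rescaled TPM 10 of the 24 were called, beside 219 named genes. Of the 19 others 7 were called, or 6 on rescaled TPM. The highest stage was the prepupa for 17 of the 24, the pupa for 5 and L6 for 2, and on rescaled TPM for 16, 2 and 6. The median TPM of the 19 others was 5.18, 66.7 and 9.501 at the successive stages, beside 3.72, 26.7 and 11.7 for all named genes. Rescaling lowered the median log2 difference between prepupa and L6 from 2.50 to 0.90 for the 19. For all named genes it fell from 2.15 to 0.63. Of the 8 inhibitors named only in the table of hemolymph proteins, 2 were called, or 1 on rescaled TPM, and of 236 such named genes tested 21 were called, or 7 on rescaled TPM. Genes also in the gland tables are missing from these counts, so they too are a selected set.

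Among the inhibitors of the TIL type, 6 of 9 were called, the Ani s 6-like gene included. The swm-1-like gene LOC118271848, named after a C. elegans inhibitor that keeps sperm from being activated early, was at 0 TPM in the larva, 2979 in the prepupa (30615 reads) and 2.45 in the pupa (37 reads). Its prepupal level lay between those of LOC118282207 and LOC118261953, and its pupal level of 2.45 stood beside the 1.57 of LOC118282478. The other 4 called genes were zonadhesin-like, and so make up 4 of the 7 called among the 19 other inhibitors of all lists. Opposite to all of these, the fungal protease inhibitor-1-like gene LOC118267111, named after an inhibitor of fungal proteases in the silkworm, stood at 385, 1.58 and 896. This gene, chosen after its values were seen, was low in the prepupa like LOC118282205 but high in L6 and pupa, with L6 the higher when rescaled (1401 against 1096).

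Serpins, larger inhibitors that trap serine proteases by a change of shape, were mixed: 2 of 7 were called, or 1 on rescaled TPM. Serpin 77Ba-like LOC118279277 had a TPM of 12.1, 1607 and 136 in L6, prepupa and pupa, and is the gene that lost its call on rescaling. LOC118279162, of the same name, had 50.1, 185 and 51.2. Serpin 88Ea-like LOC118262736 had 3.20, 251 and 11.5. Antichymotrypsin-1-like LOC118265780 had 142, 0.306 and 9.501, and was chosen after its values were seen for a prepupal low like that of LOC118282205. Of the Kazal-type inhibitors, the dipetalogastin-like LOC118272105 had 13.7, 94.2 and 41.6 and the rhodniin-like LOC118272005 had 12.3, 66.7 and 50.5, and neither was called. The tissue inhibitor of metalloproteinase-like gene LOC118280679, named after inhibitors of the matrix metalloproteinases of animals, had 0.939, 9.99 and 4.78 and was not called. Inter-alpha-trypsin inhibitor heavy chain H4-like LOC118262522 had 16.1, 6.80 and 7.17.

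Metalloproteinases and the chymotrypsin and trypsin class were also found by name, without knowledge of which enzyme any of the 5 inhibits. These are FAW genes, while IMPI was described against metalloproteinases of microbes, and action of the 5 on any of them was not tested. Of 9 metalloproteinases, 5 were called, or 4 on rescaled TPM. The highest, the zinc metalloproteinase nas-4-like LOC118274879 of the astacin family, was at 0.425 TPM in the larva, 6450 in the prepupa (87398 reads) and 5.92 in the pupa. Its prepupal level was of the same order as the 7166 of the 4 IMPI-like genes summed. Matrix metalloproteinase-2-like LOC118267038 had 1.85, 9.53 and 184, highest in the pupa. Of 6 chymotrypsin and trypsin genes, 4 passed the minimum TPM and 3 were called, with trypsin-1-like LOC118271895 at 0.358, 307 and 0.158 and trypsin-like LOC118269739 at 0, 105.5 and 0.166. These are all well below the 28761 of the Ani s 6-like gene.

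**Figure D4:**
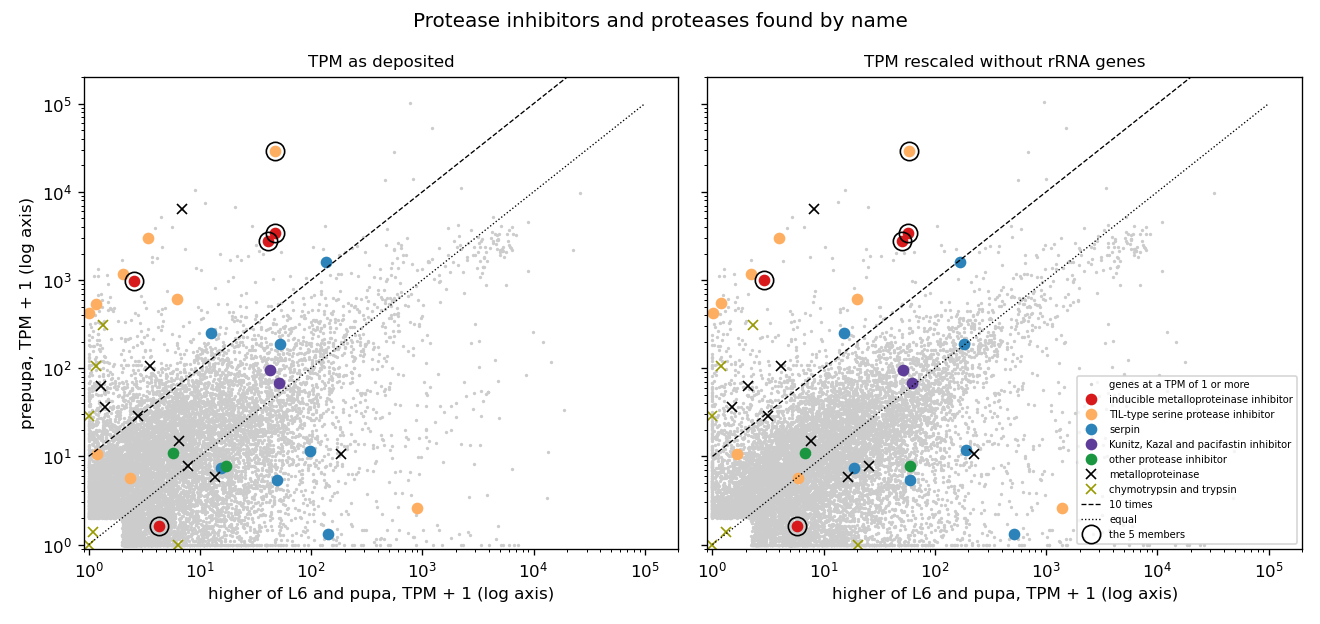
Prepupal TPM + 1 against the higher of L6 and pupa (both log axes) for genes that reached a TPM of 1 (grey), protease inhibitors by class (coloured), proteases (crosses) and the 5 described genes (ringed), as deposited on the left and rescaled without rRNA genes on the right. Above the dashed line the prepupa is at least 10 times both stages. There lie 4 ringed genes, with 11 of 24 listed inhibitors on the left and 10 on the right, zonadhesin-like genes included.

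No established marker of Verson's glands was at hand, so genes that other tissues also use were checked by name. Of these, 12 of 14 muscle genes, 17 of 25 cuticle protein genes and 4 of 5 hemocyte genes had their names from the study's table of genes selected as higher in glands, so that these lists do not mark other tissues alone. The muscle genes summed to 3798, 388 and 545 TPM at the successive stages, led by myosin regulatory light chain 2 LOC118270279 (1438, 36.0 and 211) and troponin I LOC118263900 (697, 18.7 and 59.7). They split in direction, with 10 of the 14 highest in L6 and 4 in the prepupa. The cuticle protein genes summed to 2907, 743 and 14012, led by the rigid cuticle protein 66-like genes LOC118273654 (17.9, 0.154 and 4562) and LOC118273370 (15.0, 2.67 and 3848). They too split in direction, with 12 of the 25 highest in the pupa, 4 in the prepupa and most others in L6. The cuticle protein 19-like genes LOC118261992 (0, 488 and 0.315) and LOC118261804 (0, 227 and 0.0823), named after their values were seen, were highest in the prepupa. The 5 hemocyte genes had medians of 22.4, 1.81 and 1.37 and split in direction: integrin beta-PS-like LOC118266679 was highest in the prepupa (7.89, 80.0 and 31.0), while the other 4 were highest in L6, as phenoloxidase subunit 2-like LOC118274553 (60.3, 1.54 and 1.37).

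The 5 fat body genes summed to 875, 114 and 8765, nearly all from apolipophorin-3 LOC118274630 (833, 83.3 and 8487) and apolipophorins-like LOC118280748 (39.3, 30.1 and 277). The other 3, vitellogenin-like and microvitellogenin-like genes, were highest in L6 and under 1 TPM in the pupa. The 3 midgut genes summed to 5.99, 34.1 and 6.46, led by the aminopeptidase N-like gene LOC118268234 (0.405, 29.5 and 0.149) and the pancreatic triacylglycerol lipase-like gene LOC118261988 (5.51, 4.52 and 6.11). On rescaled TPM these sums were 21.8, 34.2 and 7.90, and LOC118261988 was highest in L6 (20.1, 4.54 and 7.48). No muscle or hemocyte gene was at 0 in any library. Called over both stages were 1 muscle, 1 midgut and 2 cuticle protein genes. The muscle, fat body and cuticle protein lists had, on both scales, their lowest sum in the prepupa, where 4 of the 5 inhibitor genes peaked. The other lists did not. The hemocyte sum was lowest in the pupa (139, 86.6 and 46.4, and 507, 86.9 and 56.7 when rescaled), and the midgut sum was highest in the prepupa. Rescaled sums were 13812, 390 and 667 for muscle, 3184, 114 and 10727 for fat body, and 10570, 746 and 17150 for cuticle protein genes. The low L6 levels of the 4 inhibitor genes stand beside higher sums of the muscle, fat body, cuticle protein and hemocyte lists. Their low pupal levels stand beside higher sums of muscle, fat body and cuticle protein genes, driven for fat body by both apolipophorin genes. The hemocyte sum was lower in the pupa than in the prepupa, and the midgut sum was lower in both L6 and pupa. The part of tissue makeup in the inhibitor levels was not tested.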

How the data were processed

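Total RNA of FAW-SID1 Verson's glands was isolated with Trizol and sequenced on the BGISEQ platform, with 1 library each for L6, prepupa and pupa. Mapping to the FAW genome was done by the authors in CLC Genomics Workbench, and 1 gene table per library was deposited. The deposited counts are raw numbers of total and unique reads on exons, introns, junctions and whole genes. The deposited TPM is exon reads over exon length, scaled to the same sum in each library with rRNA genes included. The deposited RPKM is exon reads per exon length and library size. Not given in the sources used here are the genome build, the annotation release, the strand setting and the handling of reads with several places.

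TPM was the main value. Rescaled TPM leaves out 103 rRNA genes and restores the same sum. Poisson intervals of reads, conditional binomial intervals of ratios of 2 read counts and Wilson intervals of shares are at 95%. A library with no read was set to a floor of 3 reads. A call is a 10-fold excess on TPM + 1, among genes that reached a TPM of 1 in any library. No test between stages was made.

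Named are the 5 genes, their immediate neighbours, the 3 highest genes of each other inhibitor list, the 2 highest of each protease and cell type list, and the 3 genes nearest in pattern, and a few others picked after seeing their values are marked so. The 5 genes and all lists were chosen with earlier results of these data known. Names are those of the study's tables, and a list of clip-type serine proteases found no gene. Alternatives were 2 rescalings, RPKM, CPM outside rRNA, TMM scaling in edgeR 4.0.16, unique reads only, other pseudocounts (0.1 and 10), folds (5 and 100) and filters on low values. Leaving out L6 was added after its rRNA share was seen, and pupa to L6 ratios and orders on unique reads after the data were seen. Calculations used Python 3.11.15 with pandas 2.3.3, numpy 2.4.6 and scipy 1.17.1. They were tested on simulated data.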

Additional observations from a re-analysis of the deposited data

How the results depend on the processing

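The count of 4 of the 5 genes called against L6, against the pupa and against both stayed at 4 under both rescalings, RPKM, CPM, TMM scaling, unique reads, both other pseudocounts and a fold of 5, and without L6 it was 4 against the pupa. At a fold of 100 it remained 4 against L6 but was 2 against the pupa and 2 against both, since LOC118282207 and LOC118261953 were under 100 times their pupal level. Of the 24 genes counted as protease inhibitors, 11 were called, between 9 and 12 under the other settings and 6 at a fold of 100. Shares over all genes are given here only as deposited and, for both stages together, on TPM rescaled without rRNA genes. The 5 genes were chosen on these values, so a steady count is a description only. The prepupal differences of the 5 genes from L6 and pupa kept their direction under rescaled TPM, unique reads and RPKM. The pupa to L6 ratio of LOC118282205 on TPM + 1, examined after seeing the data, was 1.86 as deposited but 0.874 when rescaled and 0.941 on unique reads, and LOC118267111 was highest in the pupa as deposited but in L6 when rescaled. Depth limits the L6 values most, where 3 reads or fewer lay on LOC118282207, LOC118261953 and LOC118282478. No paired analysis was possible because each stage has 1 library.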
